A study of Mus musculus with 6 samples.

Results

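Fatty acid oxidation breaks fatty acids down to acetyl-CoA and feeds their electrons to the respiratory chain. A fatty acid is first activated to acyl-CoA, carried into mitochondria by the carnitine shuttle, and then shortened in repeated cycles of oxidation, hydration, oxidation and thiolysis, while very long and branched chains are shortened in peroxisomes. Regulatory T (Treg) cells, the CD4 T cells that restrain immune responses under the transcription factor Foxp3, have been described as leaning on fatty acid oxidation more than effector T cells do. The 33 genes described here are a fixed list of acyl-CoA synthetases, carnitine palmitoyltransferases, mitochondrial and peroxisomal enzymes, electron transfer flavoproteins and PPAR regulators. They were found by gene symbol among the 18493 genes of the deposited table, and all 33 were present.

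RNA was sequenced from CD4+CD25+YFP+ Treg cells sorted from spleen and lymph node of female C57BL/6 mice aged 7 weeks, with 3 libraries in each of 2 groups. The conditional knockout (cKO) mice were Foxp3cre/+ TKTfl/fl, so that Tkt, which encodes transketolase of the non-oxidative pentose phosphate pathway, is deleted where the Foxp3 locus drives Cre. The wild-type (WT) mice were Foxp3cre/+ and carry the same Cre allele. Because Foxp3 is X-linked, heterozygous females carry Treg cells with and without Cre, and the gate on YFP keeps those with it. The design text calls both groups chimeric. The comparison asks whether RNA of the fatty acid oxidation genes differed between the genotypes.

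The cKO libraries held 17647866 to 18215168 estimated reads and the WT libraries 17180577 to 17715571. Tkt stood at 52.5, 44.8 and 31.9 CPM (read counts scaled to a common library size) in the cKO libraries, against 126, 97.1 and 121 CPM in the WT libraries. Its log2 fold change was -1.41 ± 0.19 (SE; edgeR adjusted p = 0.0516), and the groups did not overlap. Foxp3 stood at 559 to 676 CPM in cKO and at 458 to 686 CPM in WT. The Treg marker list (6 genes) summed to 3759 to 4063 CPM in cKO and 4176 to 4606 CPM in WT, with no overlap. This separation rests on Ctla4, which stood at 492 to 977 CPM in cKO and at 1727 CPM in WT2, against 753 and 807 CPM in the other WT libraries. The other 5 genes, a split made after their values were seen, summed to 3086 to 3267 CPM in cKO and 2879 to 3496 CPM in WT, with overlap. Along the main principal component, which held 36.1% of the variance, cKO1 (33.2) and WT2 (25.4) stood apart from the other libraries (-25.9 to 8.1). The summed level of 5 erythroid markers was 197 CPM in cKO1, against 3.34 and 3.87 CPM in the other cKO libraries and 0.277 to 5.56 CPM in WT. Summed myeloid markers (7 genes) spanned 42.0 to 109 CPM in cKO and 36.4 to 72.6 CPM in WT, and B cell markers (6 genes) spanned 10.2 to 26.1 CPM in cKO and 12.6 CPM in every WT library. The 5 stromal and endothelial markers summed to 15.6 to 20.2 CPM in cKO. In WT they summed to 19.3 CPM in WT2 but to only 2.99 CPM in WT1 and 4.05 CPM in WT3. The 6 markers of CD8 T and NK cells summed to 34.5 to 41.9 CPM in cKO and 37.5 to 42.4 CPM in WT. Among them Nkg7 stood at 9.83 to 14.1 CPM in cKO and 15.5 to 21.4 CPM in WT, without overlap, while the others overlapped. The adipocyte markers with values, 4 of 6 listed, summed to under 1 CPM in every library. Of all these markers Ncr1, which marks NK cells, was at 0 in every library except cKO1. The part of these cells in the results below was not tested.

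No fatty acid oxidation gene passed the test between cKO and WT Treg cells. Of the 33 genes, 31 had enough reads to be tested, and edgeR's quasi-likelihood test called none of them at an adjusted p under 0.05. It called 27 of all 12887 genes tested (0.210%), a share at which a list of 31 would seldom hold a called gene. Tkt itself, at 0.376-fold, missed the threshold too (edgeR adjusted p = 0.0516). At an unadjusted p under 0.05 there was 1 member, Acaa1a, against 7.69% of all genes, and DESeq2 and limma-voom called no member. The median log2 fold change (cKO over WT) was 0.01 over the 31 members and 0.00 over all genes tested, and 17 members lay above 0 and 14 below. In bulk samples a smaller number of cells of a type and less RNA per cell cannot be told apart.

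The intervals around these values were narrow for most members. For 30 of 31 members the 95% interval of the fold change lay wholly within 1.5-fold in either direction, and the exception was Ppard. The same held for 84.3% of the 7657 genes whose mean level lay in the members' range of 7.42 to 143 CPM, of which 20 were called. The median size of the log2 change, regardless of sign, was 0.06 in the members and 0.08 in those genes. The median standard error of the log2 fold change was 0.0984 in the members and 0.108 in those genes. A p that misses the threshold does not show that a gene's level was the same in both genotypes.

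**Figure D1:**
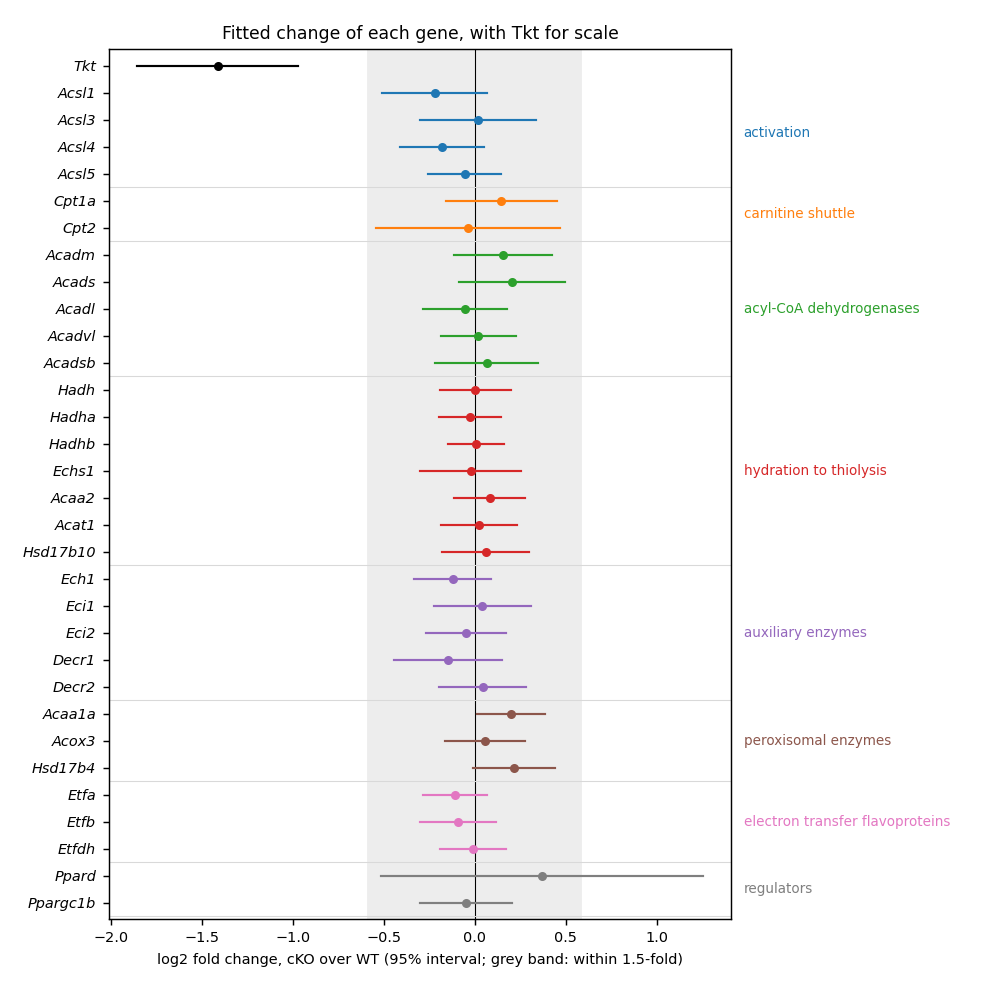
Fitted log2 fold change of each tested gene (cKO over WT, points) with its 95% interval (lines), ordered by role, with Tkt at the top for scale. The grey band marks 1.5-fold in either direction; 30 of 31 intervals lie inside it, while the interval of Ppard runs past it and that of Tkt lies outside.

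**Figure D2:**
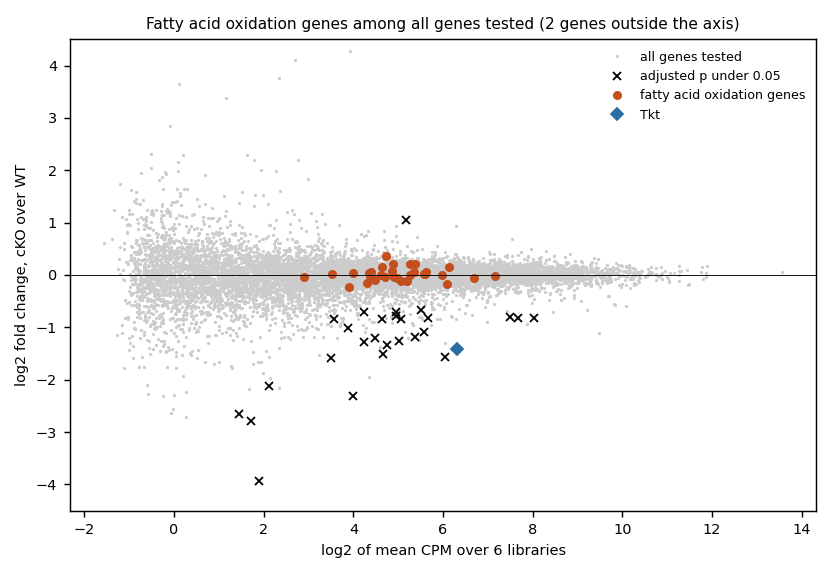
Log2 fold change (cKO over WT) against the log2 of the mean CPM of all 12887 genes tested (grey), with the 27 called genes as crosses, the 31 fatty acid oxidation genes as orange points and Tkt as a diamond. The orange points lie close to the line at 0, between -0.22 and 0.37, and 2 grey points lie outside the axis.

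Promoter sequences are shown for the genes that stand out below: Hadhb, whose start lies close to that of its partner gene Hadha, Acaa1a, which had the lowest p of the list, and Ppard, whose level differed most between libraries. Each is 300 bases long, running from 250 bases before the annotated start to 50 after it, from RefSeq on GRCm38.p6, the build also named mm10. Capitals mark GC boxes (GGGCGG, or CCGCCC on the other strand) and CCAAT boxes (CCAAT, or ATTGG on the other strand).
Hadhb, chr5:30155003-30155302, plus strand: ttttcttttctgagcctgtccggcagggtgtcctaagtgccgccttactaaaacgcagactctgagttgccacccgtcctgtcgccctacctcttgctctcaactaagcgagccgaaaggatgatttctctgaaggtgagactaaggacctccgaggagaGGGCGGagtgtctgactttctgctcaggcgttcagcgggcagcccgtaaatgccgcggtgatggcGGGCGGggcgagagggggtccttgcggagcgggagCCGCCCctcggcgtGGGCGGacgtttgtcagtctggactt
Acaa1a, chr9:119341044-119341343, plus strand: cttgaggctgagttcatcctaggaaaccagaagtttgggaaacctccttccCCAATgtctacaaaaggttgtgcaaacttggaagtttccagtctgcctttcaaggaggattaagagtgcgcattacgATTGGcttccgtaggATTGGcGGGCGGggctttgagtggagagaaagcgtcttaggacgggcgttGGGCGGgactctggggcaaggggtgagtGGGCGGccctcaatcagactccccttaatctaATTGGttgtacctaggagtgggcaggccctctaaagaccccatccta
Ppard, chr17:28232504-28232803, plus strand: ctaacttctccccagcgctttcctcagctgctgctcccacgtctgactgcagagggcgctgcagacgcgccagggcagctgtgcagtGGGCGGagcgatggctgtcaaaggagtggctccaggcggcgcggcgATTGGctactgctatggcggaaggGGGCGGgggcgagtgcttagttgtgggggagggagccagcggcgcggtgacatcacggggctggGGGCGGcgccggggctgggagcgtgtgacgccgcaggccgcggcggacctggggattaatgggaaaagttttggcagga

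The annotated starts of Hadha and Hadhb lie 273 bases apart on chromosome 5 and point away from each other, and their promoter windows share 228 bases. A window was found for 28 of the 33 genes, 31 windows in all. GC boxes were present in 26 of the 31 windows (83.9%), against 35.7% of all 32851 promoter windows, which include those of non-coding genes. CCAAT boxes were in 14 of the 31 (45.2%), against 37.4%. The TATA box (TATAAA, or TTTATA) was in none of the 31 and in 13.6% of all. The direct repeat bound by PPAR and RXR, AGGTCA followed by any 1 base and AGGTCA again, was in none of the 31 and in 13 of all 32851 windows. An exact match that rare would seldom fall in any 31 windows, so its absence here is not a result about these genes. The hexamer AGGTCA alone, in either direction, was in the windows of Acadm, Acadvl, Acsl6, Cpt1a and Echs1 (16.1% of windows, against 16.3% of all). These are matches of letters within the windows and say nothing of binding.

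Levels per length were taken from the deposited FPKM values (reads scaled to transcript length and library size). The 31 tested members had a median of 15.6 FPKM, against 9.50 FPKM over all genes tested, and 23 of them lay above that value. The highest was Hsd17b10 and the lowest of those tested Acsl3. Acsl6 and Ppara were close to the detection limit. Acsl6 had 2, 2 and 5 reads in the cKO libraries and 0, 2 and 1 in the WT libraries. Ppara, the PPAR isotype that drives fatty acid oxidation in liver, had 1, 1 and 0 reads in cKO and 0, 1 and 0 in WT, and no fold change is given for either gene.

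**Figure D3:**
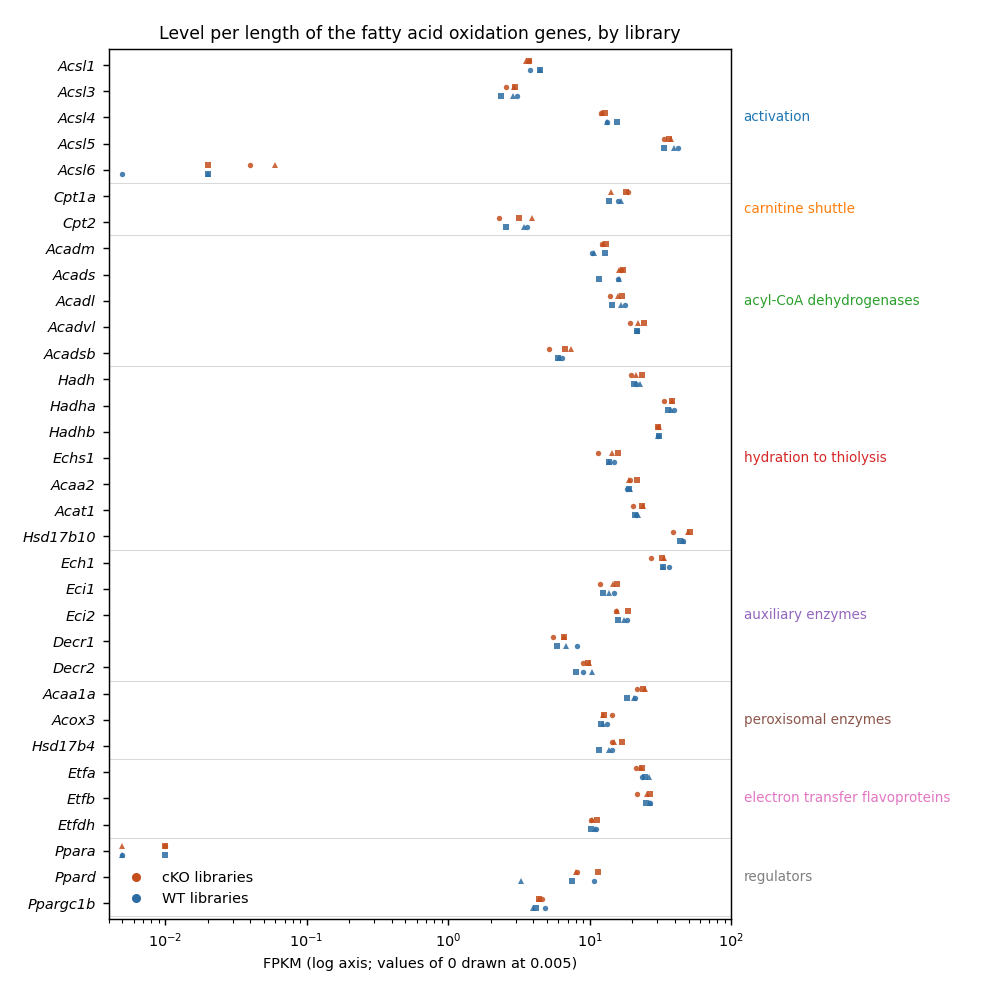
FPKM of the 33 genes in each library on a log axis, grouped by role, with the 3 cKO libraries (orange) drawn above the 3 WT libraries (blue) in each row; circles, squares and triangles stand for replicates 1, 2 and 3. Values of 0 are drawn at 0.005. Acsl6 and Ppara lie far left of the other 31 genes, and Ppard spreads widest among those.

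Long-chain acyl-CoA synthetases trap fatty acids in the cell as acyl-CoA, the form that is either burned or built into lipids. Acsl5 made up most of the synthetase RNA in both groups, at 65.4 ± 1.11% of the summed Acsl FPKM in cKO and 64.3 ± 3.96% in WT (SD, n = 3 each). Acsl4, which prefers arachidonic acid, followed with 22.6 ± 0.811% in cKO and 23.8 ± 3.56% in WT. Acsl1 and Acsl3 took 6.74% and 5.16% in cKO and 7.19% and 4.67% in WT. Acsl5 stood at 97.5, 103 and 105 CPM in cKO libraries, against 114, 95.9 and 107 CPM in WT libraries, with overlapping groups. Its log2 fold change was -0.06 ± 0.08 (SE; edgeR adjusted p = 0.961).

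Acsl4 (X chromosome, positions 142317993 to 142390802 of mm10) stood at 64.5, 65.6 and 62.0 CPM in cKO, against 67.5, 82.9 and 67.4 CPM in WT. The groups did not overlap, with cKO the lower, but WT2 was far above the other WT libraries. The log2 fold change was -0.18 ± 0.10 (SE; adjusted p = 0.785), and without WT2 it was -0.07. Acsl1, which channels fatty acids to oxidation in muscle and fat, had a log2 fold change of -0.22 ± 0.12 and overlapping groups. Acsl3, which is known from lipid droplet formation, had one of 0.01 ± 0.14. Its gene span contains Utp14b, and reads of the 2 genes may not be fully separated.

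The carnitine shuttle moves long acyl chains across the mitochondrial membranes, and Cpt1a, on its outer side, is the step inhibited by malonyl-CoA. Cpt1a (chromosome 19, positions 3322326 to 3385735) stood at 83.6, 78.0 and 60.6 CPM in cKO, against 68.1, 61.2 and 71.6 CPM in WT. Libraries cKO1 and cKO2 were above all WT libraries and cKO3 was below all of them. The log2 fold change was 0.14 ± 0.13 (SE; edgeR adjusted p = 0.908), with a 95% interval from -0.16 to 0.45. It was 0.27 without cKO3 and -0.01 without WT2 and cKO1, so its value rests on single libraries. Cpt2, which releases the acyl-CoA again inside the mitochondrion, was among the lowest members, at 3.12 ± 0.801 FPKM in cKO and 3.20 ± 0.568 FPKM in WT (SD, n = 3 each), with a log2 fold change of -0.04 ± 0.22. The translocase Slc25a20, which is not among the 33 genes, had one of -0.02 ± 0.09.

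Acyl-CoA dehydrogenases carry out the first oxidation and divide the work by chain length. Acadvl, for very long chains, was the most abundant of the 5 in each library, at 28.6% to 31.0% of their summed FPKM in cKO and 29.9% to 32.6% in WT. It stood at 43.6, 52.7 and 47.5 CPM in cKO and at 46.4, 48.7 and 46.6 CPM in WT, where the WT values lie inside the range of the cKO values. Its log2 fold change was 0.02 ± 0.09 (SE; edgeR adjusted p = 0.992).

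Acads, for short chains, had the lowest p of the dehydrogenases. It stood at 32.9, 32.4 and 30.2 CPM in cKO, against 29.8, 22.5 and 30.5 CPM in WT. The low WT value was that of WT2, and the highest WT value lay just above the lowest cKO value. The log2 fold change was 0.20 ± 0.12 (SE; adjusted p = 0.818), and without WT2 it was 0.08. Acadm, for medium chains, had a log2 fold change of 0.15 ± 0.11, and without WT2 it was 0.28 (adjusted p = 0.337; at least 0.315 under every alternative). Acadl, for long chains, had -0.06 ± 0.10 and Acadsb, for short branched chains, 0.06 ± 0.12.

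The following steps of the mitochondrial cycle are hydration, a second oxidation and thiolysis, and their 7 genes showed the smallest range of change of any role with over 3 tested genes. Their log2 fold changes ran from -0.03 to 0.08, and all 7 intervals lay within 1.5-fold. The 3 electron transfer flavoprotein genes, left out by that cut, had a slightly narrower range, from -0.11 to -0.01. Hsd17b10, an enzyme of isoleucine and short-chain oxidation that is also a subunit of mitochondrial RNase P, was the most abundant member per length, at 46.7 ± 6.78 FPKM in cKO and 44.9 ± 1.45 FPKM in WT (SD, n = 3 each). It stood at 35.6, 45.4 and 43.6 CPM in cKO, against 40.0, 39.5 and 40.2 CPM in WT. The WT libraries were close together, with cKO1 below and the other cKO libraries above them.

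Hadha and Hadhb encode the alpha and beta subunits of the mitochondrial trifunctional protein. Hadha (chromosome 5, positions 30119423 to 30154980) stood at 133, 147 and 146 CPM in cKO, against 150, 142 and 143 CPM in WT. Hadhb, its neighbour at positions 30155253 to 30184593, stood at 64.5, 62.1 and 63.0 CPM in cKO, against 62.0, 65.0 and 61.8 CPM in WT. In neither gene did the groups separate, and the log2 fold changes were -0.03 ± 0.07 and 0.01 ± 0.07 (SE; adjusted p = 0.983 and 0.997). Per length, Hadha was 1.09 to 1.25 times Hadhb in cKO and 1.157 to 1.284 times in WT, and this ratio was lowest in cKO1 and, among WT libraries, in WT2.

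Acaa2, the mitochondrial thiolase, had the lowest p of the 7 genes. It stood at 29.5, 31.9 and 27.6 CPM in cKO and at 27.0, 28.9 and 28.4 CPM in WT, and the groups overlapped (log2 fold change 0.08 ± 0.08 SE; edgeR adjusted p = 0.923). Hadh, the short-chain hydroxyacyl-CoA dehydrogenase, had a log2 fold change of 0.00 ± 0.08. Acat1, the thiolase that also serves ketone bodies, had one of 0.02 ± 0.09, and Echs1, the short-chain hydratase, one of -0.02 ± 0.12. The Echs1 span shares 687 bases with that of Paox, and the sources used here do not state whether counting used strand.

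Auxiliary enzymes reshape unsaturated chains so that the cycle can continue. Ech1, a dienoyl-CoA isomerase, was the most abundant of the 5 per length, at 31.2 ± 3.49 FPKM in cKO and 34.0 ± 1.94 FPKM in WT (SD, n = 3 each). It stood at 31.3, 36.4 and 37.1 CPM in cKO, against 39.9, 37.8 and 36.5 CPM in WT. Only cKO1 lay clearly below the WT libraries, and the log2 fold change was -0.12 ± 0.09 (SE; edgeR adjusted p = 0.860). The reductase Decr1 had a log2 fold change of -0.15 ± 0.13, which was -0.02 without WT1, where it stood at 23.9 CPM, against 18.1 and 19.9 CPM in the other WT libraries. The isomerases Eci1 and Eci2 had 0.04 ± 0.11 and -0.05 ± 0.09, and the peroxisomal reductase Decr2 had 0.04 ± 0.10.

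Of the 3 peroxisomal enzymes, 2 had groups that did not overlap, both with cKO above WT. Among 17 tested genes of a further peroxisome list, 9 lay above 0 and 8 below, the groups did not overlap in 1 gene in each direction, and the median log2 fold change was 0.01. Over the whole list of members the groups did not overlap in 4 of 31 genes, 2 with cKO above WT and 2 with cKO below, which is 12.9% against 14.2% of all genes tested. Acaa1a and Hsd17b4 were those above, and Acsl4 and Etfa those below. The summed FPKM of the 3 peroxisomal genes was 50.7, 53.2 and 51.95 in cKO, against 48.9, 42.0 and 46.7 in WT. Of such sums for each of the 8 roles, it was the only one whose groups did not overlap. It contains Acaa1a and Hsd17b4 and so adds nothing independent of them.

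Acaa1a, the peroxisomal thiolase (chromosome 9, positions 119341028 to 119350296), stood at 42.7, 43.7 and 47.1 CPM in cKO, against 40.3, 36.4 and 39.5 CPM in WT. All cKO libraries lay above all WT libraries, with a gap smaller than the range within either group. The fold change was 1.15 (95% interval 1.01 to 1.31), the log2 fold change 0.20 ± 0.08 (SE), the unadjusted p 0.0383 and the adjusted p 0.599 in edgeR's test. The unadjusted p was under 0.05 in 11 of 19 alternatives, and the adjusted p ranged from 0.418 to 0.955. Its promoter, shown above, holds 4 CCAAT boxes and 3 GC boxes. The promoter window is set on a start at position 119341294, which lies inside the gene span given here. The near-identical paralog Acaa1b was listed at 0 reads in 4 libraries, with 0.92 reads in cKO2 and 4.33 reads in WT2, so the value of Acaa1a may hold reads of either copy.

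Hsd17b4, the peroxisomal multifunctional enzyme that carries out hydration and the second oxidation, stood at 39.7, 44.8 and 38.8 CPM in cKO, against 37.8, 32.1 and 36.3 CPM in WT. The groups were again separate by a small gap between cKO3 and WT1, and WT2 was the lowest library. The log2 fold change was 0.21 ± 0.10 (SE; edgeR adjusted p = 0.680), and without WT2 it was 0.15. Acox3, the oxidase of branched chains, had a log2 fold change of 0.06 ± 0.09, with cKO1 above all other libraries and the remaining groups overlapping.

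**Figure D4:**
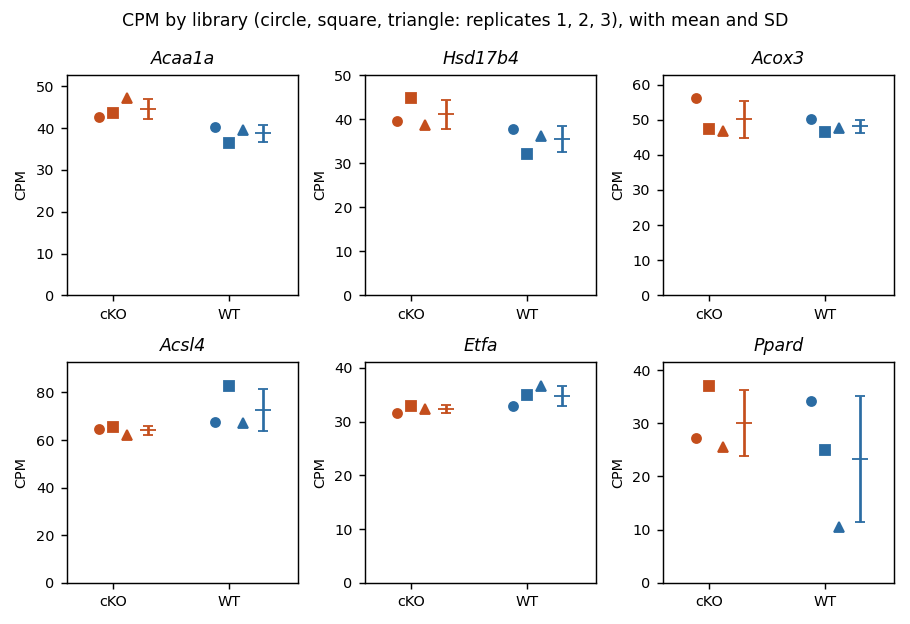
CPM of 6 genes in each library, with cKO left and WT right in each panel, axes from 0, and the mean ± SD of 3 libraries beside the points. Acaa1a and Hsd17b4 lie above WT in all 3 cKO libraries and Acsl4 and Etfa below, each by a small margin, while Acox3 overlaps and Ppard has a WT library at 10.6 CPM.

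Electron transfer flavoproteins pass electrons from the acyl-CoA dehydrogenases to ubiquinone. Etfb and Etfa, which form a heterodimer, were close to each other per length, with Etfa at 0.877 to 0.975 times Etfb in cKO and 0.874 to 0.986 times in WT. Etfb stood at 19.7, 23.3 and 22.1 CPM in cKO, against 23.3, 22.8 and 23.4 CPM in WT, where cKO2 overlaps the WT values. Etfa (chromosome 9, positions 55454436 to 55512243) stood at 31.6, 32.98 and 32.4 CPM in cKO, against 33, 34.9 and 36.7 CPM in WT. The groups of Etfa did not overlap, but cKO2 and WT1 were nearly equal. The log2 fold changes were -0.11 ± 0.08 for Etfa, -0.09 ± 0.09 for Etfb and -0.01 ± 0.08 for the oxidoreductase Etfdh (SE; edgeR adjusted p from 0.844 to 0.996).

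Among the regulators, Ppard encodes the PPAR isotype expressed in most tissues, and Ppargc1b a coactivator of mitochondrial genes. Ppard (chromosome 17, positions 28232754 to 28301469) stood at 27.3, 37.1 and 25.6 CPM in cKO, against 34.2, 25.0 and 10.6 CPM in WT. Library WT3 was far below every other library, while the remaining WT libraries lay within or near the range of cKO. The log2 fold change was 0.37 ± 0.38 (SE; adjusted p = 0.923), and its 95% interval ran from 0.698-fold to 2.38-fold. Without WT3 the log2 fold change was 0.02, and without WT1 it was 0.76 (adjusted p at least 0.785 under every alternative). Ppargc1b stood at 29.3 ± 2.34 CPM in cKO and 30.3 ± 3.28 CPM in WT (SD, n = 3 each), with a log2 fold change of -0.05 ± 0.11. Its deposited FPKM ran the other way, at 4.45 ± 0.130 in cKO and 4.32 ± 0.440 in WT.

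**Figure D5:**
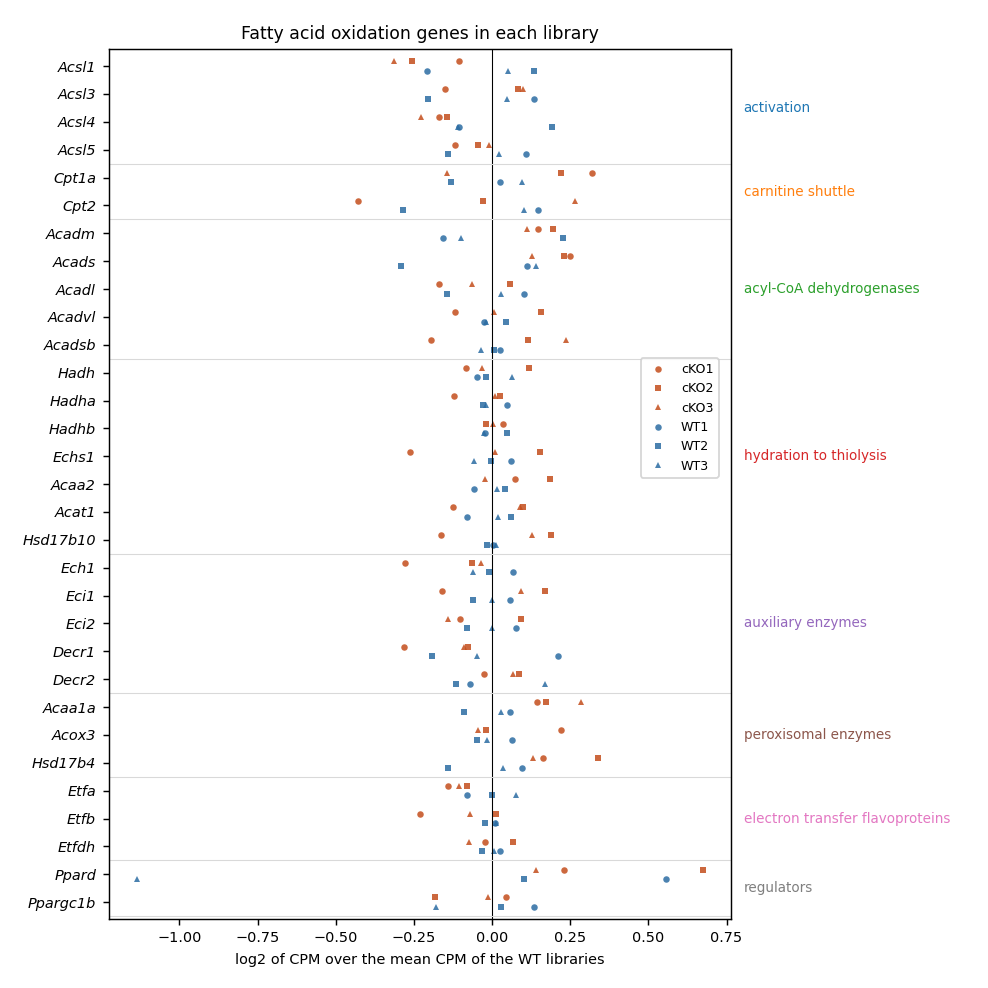
Log2 of the CPM of each of the 31 tested genes over its mean in the WT libraries, with the 3 cKO libraries (orange) drawn above the 3 WT libraries (blue) in each row and replicates 1, 2 and 3 as circles, squares and triangles. Most points lie near 0, the circles of cKO1 are often the lowest of their row, and the triangle of WT3 stands far to the left for Ppard.

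The members also varied between libraries of a genotype. Library cKO1 had the lowest CPM of the cKO libraries in 18 of 31 members (58.1%), against 37.9% of all genes tested, and cKO2 in 2 members. Among WT libraries WT2 was the lowest in 17 of 31 members (54.8%), against 42.1% of all genes. The members' median deviation from their group mean, on the log2 scale, was -0.07, 0.07 and 0.00 in cKO1, cKO2 and cKO3 and 0.05, -0.02 and 0.01 in WT1, WT2 and WT3. The summed FPKM of the 33 genes was 499, 574 and 549 in cKO, against 558, 511 and 541 in WT. With both WT2 and cKO1 left out, which was decided once the data had been seen, no member was called, and the median log2 fold change of the members was 0.00.

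Further genes of the pathway were listed in 8 groups that cover uptake, lipolysis, other carnitine and oxidation enzymes, peroxisomes, malonyl-CoA control, ketone bodies and PPAR partners. Of 114 genes, 89 were tested and none was called, and the median log2 fold change was 0.03. DESeq2 and limma-voom called none either. An unadjusted p under 0.05 was found for 7 of the 89, against 7.69% of all genes tested. Groups did not overlap in 9 of the 89 with cKO above WT and in 8 with cKO below, against 14.2% of all genes tested in either direction. The gene with the lowest p was Acss2, the cytosolic and nuclear acetyl-CoA synthetase, at 40.4, 35.9 and 41.3 CPM in cKO, against 31.7, 29.5 and 32.3 CPM in WT. All cKO libraries were above all WT libraries, and the log2 fold change was 0.33 ± 0.09 (SE; edgeR adjusted p = 0.304).

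In the other 7 groups the gene with the lowest p had an adjusted p between 0.507 and 0.809. Dbi, the acyl-CoA binding protein, stood at 12.3 ± 0.435 CPM in cKO and 15.3 ± 1.41 CPM in WT (SD, n = 3 each), without overlap (log2 fold change -0.32 ± 0.11 SE). Lipe, the hormone-sensitive lipase, stood at 28.6 ± 1.37 CPM in cKO and 23.4 ± 3.42 CPM in WT, and Pccb, a subunit of propionyl-CoA carboxylase, at 14.6 ± 0.781 CPM in cKO and 11.9 ± 0.760 CPM in WT (SD, n = 3 each). Log2 fold changes were 0.16 for the carnitine transporter Slc22a5, -0.58 for the peroxisome division factor Pex11a, 0.19 for Prkag2, a subunit of the energy sensor AMPK, and 0.24 for Txnip. The muscle isoform Cpt1b stood at 1.57, 1.36 and 1.003 CPM in cKO, against 1.39, 2.03 and 0.169 CPM in WT. Pparg and Ppargc1a were below the filter, at under 1 CPM in every library.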

How the data were processed

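Per the submitters' processing notes, the tools were HISAT2 2.0.5, DESeq2 1.16.1 and featureCounts 1.5.0-p3, and the build was mm10. The notes as used here give neither their roles nor their order. The authors deposited estimated counts per gene and library, not normalized. Between 45.4% and 46.3% of them are not whole (tolerance 0.01), for a reason that those sources do not state. The authors also deposited values that behave as FPKM, judged from their ratio to the counts and the library totals. The deposited group means were not used.

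Estimated counts were rounded. In R 4.3.3, genes passing filterByExpr of edgeR 4.0.16 (minimum count 10) were kept (12887), scaled by TMM and tested with the quasi-likelihood F test, group as the only term, two-sided, with Benjamini-Hochberg adjustment over all genes tested and a threshold of 0.05. Standard errors came from the F statistic, and 95% intervals from the t distribution. CPM values are TMM-scaled. With 3 libraries a group an exact permutation p cannot be smaller than 0.1, so none was used. The design text states 3 mice per group, compared by genotype. The labels do not tie each library to a mouse or say whether a library pools mice. The p-values rest on variation among these 6 libraries.

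Alternatives were DESeq2 1.42.0, limma-voom (limma 3.58.1), other scalings and filters, robust empirical Bayes, a block for the replicate number, another quasi-likelihood fit, limma on log2(FPKM + 0.1 or 1), and each library left out. The code was tested on simulated data. Coordinates and promoter sequences are from RefSeq on GRCm38.p6, counted from 1.

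The members and lists were chosen with earlier results of these data known. Values in every library are given for the most abundant member and the one with the lowest p in each of the 8 roles, and for members with an unadjusted p under 0.05, with groups that do not overlap or with a change of at least 1.5-fold. Those of Hadha, Hadhb, Acsl6, Ppara, Acss2 and Cpt1b, and the choice of promoters were added after values were seen. The values by library of Acsl3, Utp14b and Acot2 and the WT values of Decr1 also lie outside that rule. So do the ratios between genes and the summed FPKM values. In each further list the gene with the lowest p is named; Slc25a20, Acaa1b, Cpt1b, Pparg and Ppargc1a were also added after values were seen.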

Additional observations from a re-analysis of the deposited data

How the results depend on the processing

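No member was called under any of the 19 alternatives, and the lowest adjusted p of a member was 0.315. The members' median log2 fold change ran from -0.03 to 0.05. The median deviation of the members in single libraries from their group mean had an SD of 0.05. That SD describes single libraries and not a difference between groups. No further gene of the pathway was called either. Of 589 member values under the alternatives, 40 changed sign, in 18 members, none of them called before or after, and the largest log2 fold change among these members was that of Cpt1a (0.14). The other 13 members kept their sign throughout. Leaving out 1 library turned the sign or moved the log2 fold change by over 1.5 times in 28 of 31 members, in those other than Ppard by at most 0.18.

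The count of all genes called, 27, was 177 with DESeq2, 48 with robust empirical Bayes, 43 with no low-count filter, 9 with limma on log2(FPKM + 1) and 0 with a pseudocount of 0.1 (929 at an unadjusted p under 0.05). It was 71 with both WT2 and cKO1 left out, which was decided once the data had been seen, and 0 to 30 with each library left out; the cause was not tested. Leaving out any library but WT2 gave 0 (681 to 909 at an unadjusted p under 0.05). With the replicate block it was 0 (811 at an unadjusted p under 0.05) and no member was called. Deviations of same-numbered libraries correlated at -0.28, 0.06 and 0.26, so the numbers were not taken to pair the samples. What depth alone limits was not tested: the widest intervals were those of Ppard (0.698-fold to 2.38-fold) and Cpt2 (0.686-fold to 1.38-fold).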

Other observations

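Utp14b, whose annotated span shares 9777 bases with that of Acsl3, stood at 12.2 CPM in cKO1 and 11.7 CPM in WT2, the libraries that stood apart on the first principal component, against 4.09 and 2.67 CPM in the other cKO libraries and 3.27 and 3.49 CPM in the other WT libraries. Acsl3 itself was at its lowest in those same libraries, with 10.3 CPM in cKO1 and 9.93 CPM in WT2, against 12.1 and 12.3 CPM in the other cKO libraries and 12.5 and 11.8 CPM in the other WT libraries. Neither pattern was particular to this pair. Acsl5, Hadha, Hsd17b10 and Acaa1a, among other members, were also lowest in cKO1 and WT2 within their groups, though not every member was. Acot2, a further gene of the pathway, was highest in them, at 54.9 CPM in cKO1 and 54.5 CPM in WT2. It stood at 34.8 and 21.8 CPM in the other cKO libraries and 20.8 and 24.3 CPM in the other WT libraries. How the counting divided reads between Utp14b and Acsl3 was not tested.

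The ratio of Cpt1a to Cpt2 per length, the entry and exit enzymes of the carnitine shuttle, was 8.13, 5.76 and 3.64 in cKO1, cKO2 and cKO3, against 4.44, 5.41 and 4.85 in WT1, WT2 and WT3. The cKO libraries thus spread to both sides of the WT libraries.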
